A study of Danio rerio with 16 samples.

Results

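Normal zebrafish development between 24 and 48 hours post fertilisation (hpf) was followed in the 8 wild type arrays of a series of 16. They were the 4 arrays titled wild type at 48 hpf and the 4 titled wild type at 24 hpf, chosen by genotype and time alone. The other 8 arrays, of embryos homozygous for the rad21 mutation nz171, were left out. Embryos were kept at 28 °C in embryo medium and freed of their chorions, and each array was hybridised with RNA of a separate pool of 50 whole wild type embryos. The strain is not given in the sources used here. Pooling leaves no measure of the spread between single embryos, and each comparison has n = 4 pools per time.

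On the first day the zebrafish embryo lays down its body axis, segments its trunk and tail into somites and starts its heartbeat. On the second day the tail stops growing by addition of new somites, skeletal muscle matures, pigment cells darken, the fin folds stiffen, blood circulates, and the eye, brain and liver differentiate until the embryo hatches. RNA of a whole embryo averages all of these tissues. In such bulk samples a lower value can come from fewer cells of a type or from less RNA per cell, and these cannot be told apart.

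All values below are log2 of the deposited probe set intensities on the Affymetrix zebrafish genome array, and a change is the log2 difference of 48 hpf minus 24 hpf with its standard error (SE). A gene was said to rise or fall where limma's adjusted p was under 0.05, with adjustment over 15502 probe sets and no minimum fold. The 5 probe sets of reporter and other foreign sequences, which wild type embryos lack, had a median of 4.66 and values from 2.87 to 7.22. Without the brightest of the 5 the highest value was 5.89. That median is thus a guide rather than a firm floor. Genes near or below it lie close to background, where fold changes are compressed. Of the 15502 probe sets, 4408 (28.4%) were called, 1878 of them (12.1%) higher and 2530 (16.3%) lower at 48 hpf. Increases were the larger changes: 542 probe sets rose and 247 fell at least 2-fold, and 47 rose and 7 fell at least 8-fold. Among the 8793 genes with a symbol, 1210 (13.8%) rose and 1773 (20.2%) fell, and the median change over all of them was -0.06. These 2 shares are the background against which each gene list below is to be read. The lists were chosen with earlier results of these data known. A share above or below the background therefore describes a list and is not a test of it. The balance of higher and lower calls depended on scaling. After cyclic loess between arrays, 2265 probe sets were higher and 1804 lower, so that 55.66% of the calls were higher in place of 42.6%.

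The times separated along the first principal component, with 69.12% of the variance. The second held 11.06%, with 24 hpf replicate 1 and 48 hpf replicate 3 at 26.10 and 17.09 and the other 6 arrays between -11.08 and 4.35. Those 2 arrays also correlated least with their own groups, with a mean r of 0.9847 and 0.9855 against 0.9906 to 0.9922 for the others. Without both of them 5064 probe sets were called, of which 4054 were among the 4408. The 3′ minus 5′ log2 difference of the acta1 control probe sets, a sign of RNA integrity, averaged 3.07 at 24 hpf and 2.62 at 48 hpf (exact permutation p = 0.0286, the smallest that 4 against 4 arrays can give, adjusted p = 0.0571 over 2 controls). That of GAPDH averaged 0.411 and 0.590 (exact permutation p = 0.0857). The part of RNA quality in the results below was not tested.

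**Figure D1:**
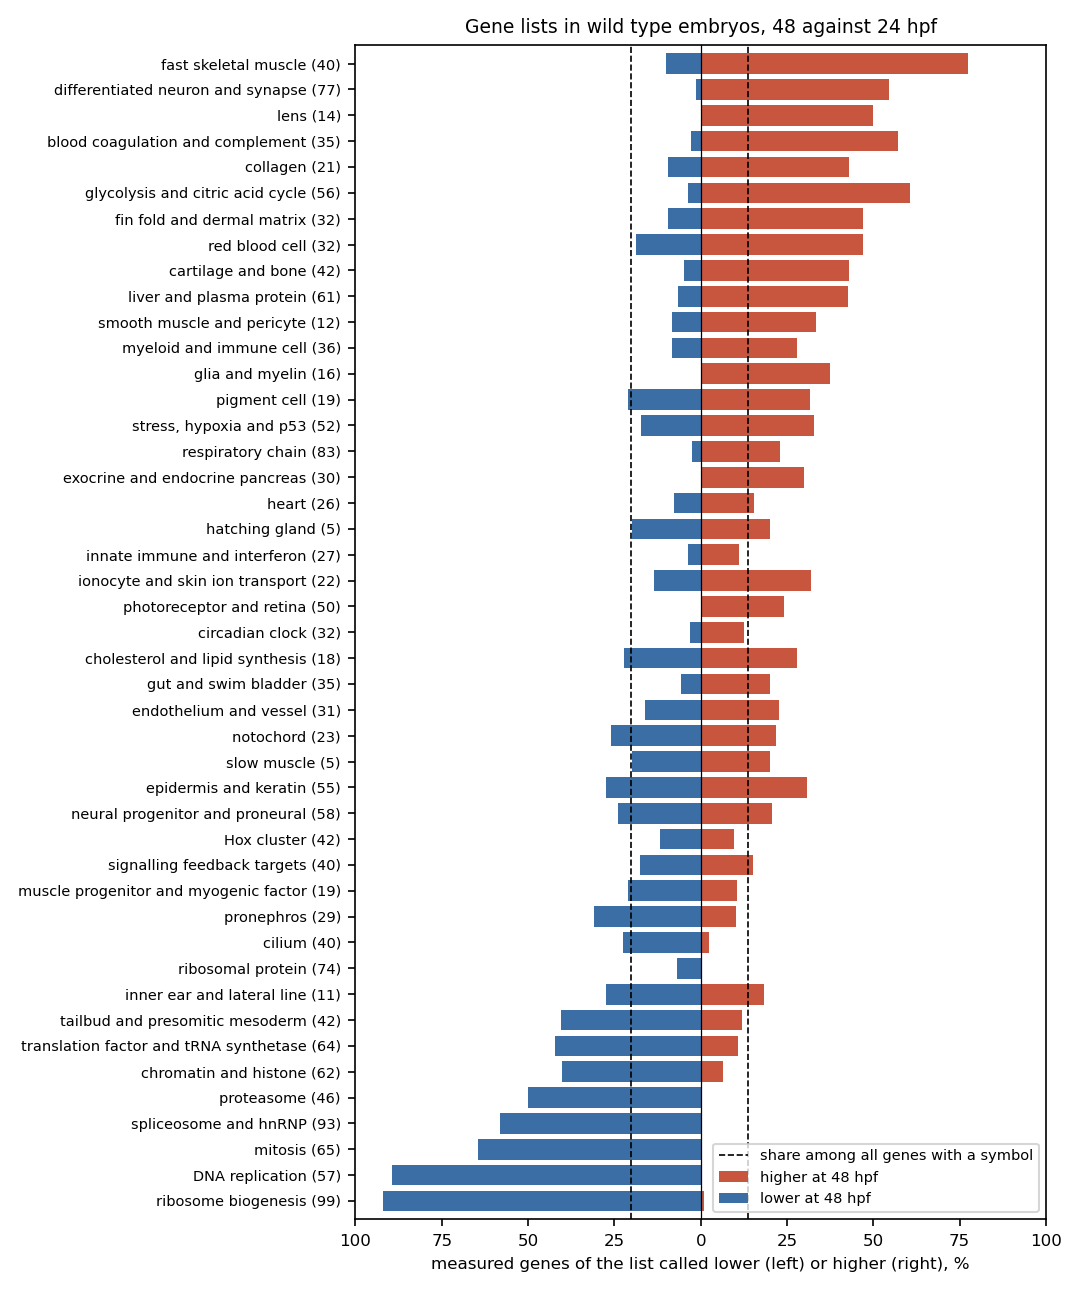
Share of the measured genes of each list that was called lower (blue, to the left) or higher (red, to the right) at 48 hpf, in percent, with the number of measured genes in brackets and lists ordered by their median change. Dashed lines mark the shares among all 8793 genes, 20.2% lower and 13.8% higher. Muscle, neuron, lens, coagulation, collagen and glycolysis lists lie at the top, and replication, mitosis, splicing and ribosome biogenesis lists at the bottom.

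**Figure D2:**
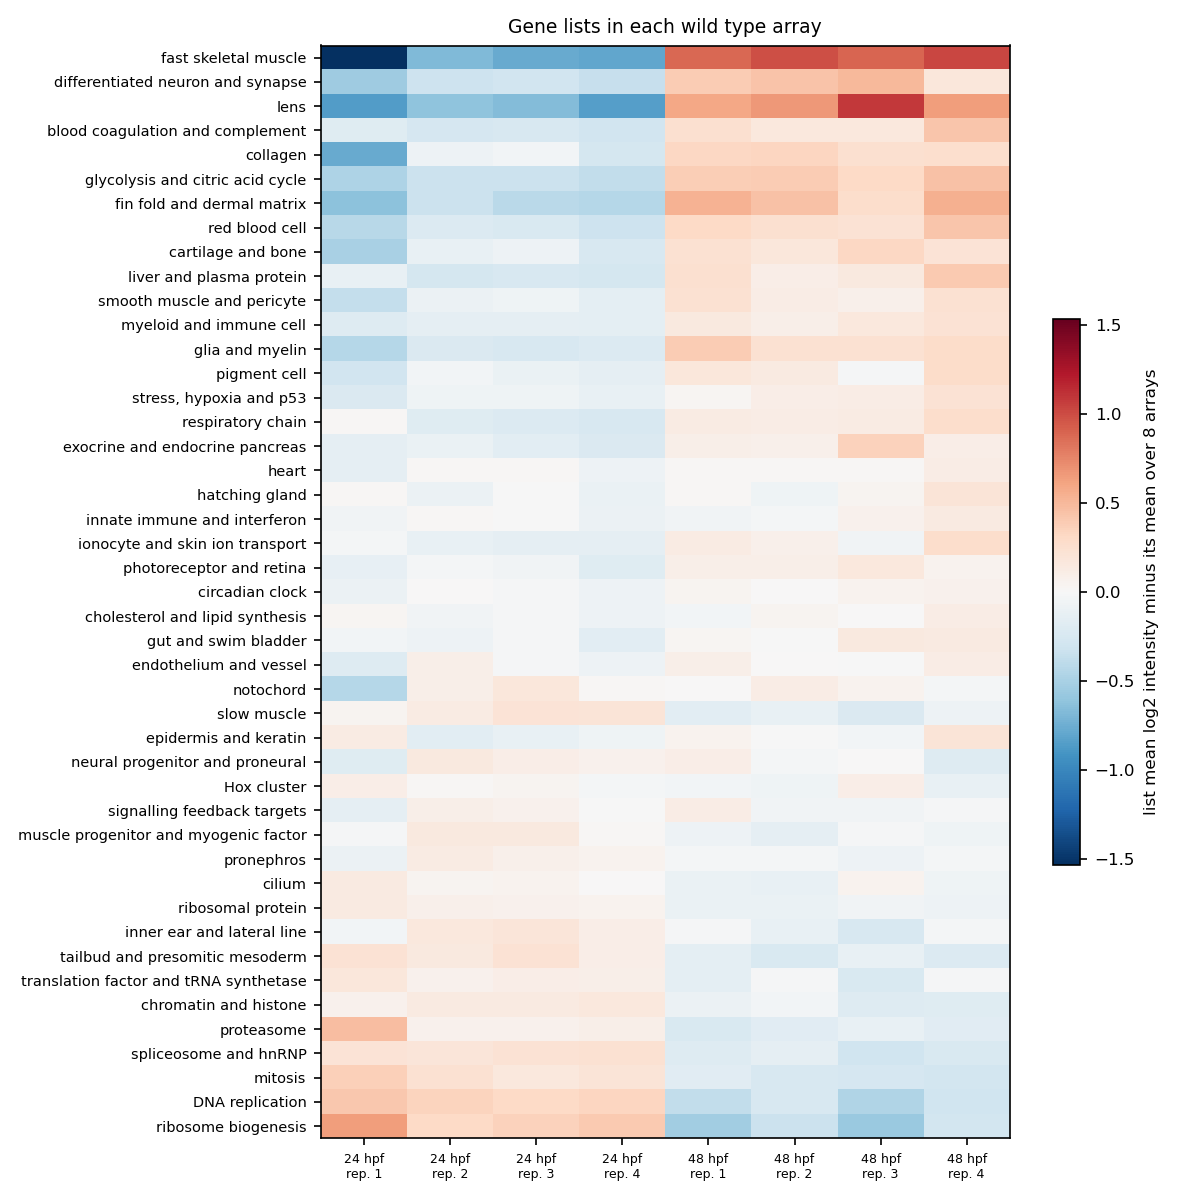
Mean log2 intensity of each gene list in each of the 8 wild type arrays, after subtraction of the list's mean over the 8 arrays. Blue is lower and red is higher. In 24 hpf replicate 1 the fast muscle list is lower than in the other 24 hpf arrays, and the ribosome biogenesis and proteasome lists are higher.

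Fast skeletal muscle had the highest median change of the lists. Of 40 measured genes of the fast skeletal muscle list, 31 (77.5%) rose and 4 (10%) fell, against 13.8% and 20.2% of all genes. The median change was 1.65. The parvalbumin pvalb1, a calcium buffer of fast fibres, read 5.64, 7.75, 7.60 and 7.74 at 24 hpf and 13.23, 13.23, 13.19 and 13.29 at 48 hpf. Every 48 hpf array lay above every 24 hpf array, and 24 hpf replicate 1 was lower than its group. The change was 6.05 ± 0.39, adjusted p = 1.57e-06, a 66.4-fold rise. The troponin T gene tnnt3b, part of the calcium switch on the thin filament, read 6.23, 8.28, 8.02 and 8.20 at 24 hpf and 12.91, 12.99, 12.85 and 12.97 at 48 hpf. The groups did not overlap, with 24 hpf replicate 1 again the lowest, and the change was 5.25 ± 0.37, adjusted p = 3.09e-06. A calcium pump gene of the sarcoplasmic reticulum, atp2a1l, went from 4.402 ± 0.26 at 24 hpf to 9.04 ± 0.35 at 48 hpf (SD, n = 4), a change of 4.64 ± 0.18, adjusted p = 3.07e-08. Other parvalbumins rose as well, with pvalb4 at 4.67 ± 0.20, pvalb5 at 4.198 ± 0.14, pvalb3 at 3.79 ± 0.25 and pvalb2 at 3.47 ± 0.34. Of the 9 measured parvalbumin genes 8 rose and 1 fell, by 0.40. The smallest rises, 0.49 and 0.53, started from means below the foreign-sequence median. Several Z-disc and filament genes also rose. The calsarcin gene myoz1b changed by 3.70 ± 0.19, the Z-disc protein gene ldb3a by 2.80 ± 0.14, the myosin binding protein gene mybpc2b by 3.13 ± 0.20 and the troponin I gene tnni2a.4 by 3.70 ± 0.30. Smaller rises were those of the myosin heavy chain myhz1.3 at 1.11 ± 0.19 and the muscle creatine kinase ckma at 2.35 ± 0.31. The probe set of the actin gene actc1b with the highest signal rose by 1.25, whereas the other probe sets given that symbol, which lie near background, changed by 0.10 (not called) and -0.76 (called lower).

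Members that fell within the same list included protein-folding genes. The myosin chaperone unc45b read 9.15, 9.06, 8.91 and 8.80 at 24 hpf and 7.88, 8.42, 7.55 and 8.04 at 48 hpf, with every 48 hpf array below every 24 hpf array and a change of -1.01 ± 0.17, adjusted p = 0.00114. Its partner hsp90aa1.1, which folds myosin in muscle fibres, changed by -1.57 ± 0.19, adjusted p = 0.000165. The remaining members that fell were the troponin I gene tnni2b.1 at -1.13 ± 0.14 and the calcium channel subunit gene cacng1a at -1.02 ± 0.11. In the list of muscle progenitor and myogenic factor genes, 4 of 19 (21.1%) fell and 2 (10.5%) rose, against 20.2% and 13.8% of all genes. The differentiation factor myog read 8.20, 8.16, 8.32 and 8.24 at 24 hpf and 6.101, 5.26, 5.55 and 5.71 at 48 hpf. The groups were apart by more than 2 log2 units, and the change was -2.58 ± 0.16, adjusted p = 9.76e-07. Both genes that rose there serve the nerve-muscle synapse: musk, its organising receptor kinase, at 1.47 ± 0.14, and chrne, a subunit of the acetylcholine receptor, at 0.94 ± 0.19. The determination factors myod1 and myf5 lay below the foreign-sequence median at both times and were not called, with changes of -0.11 and -0.14. The slow myosin heavy chain smyhc1 was not called either, with values of 10.65, 10.60, 10.63 and 10.68 at 24 hpf and 10.69, 10.83, 10.83 and 10.84 at 48 hpf that did not overlap and a change of 0.16 ± 0.08, adjusted p = 0.19. Of the 5 slow muscle genes the troponin T gene tnnt2c fell by 1.64 and 1 rose, a count that was 0 in 6 of the 8 fits that left out 1 array, namely without 24 hpf replicate 1, 2 or 4 or 48 hpf replicate 2, 3 or 4. The mean level of the fast muscle list was 8.27 in 24 hpf replicate 1 and 9.01 to 9.13 in the other 24 hpf arrays.

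**Figure D3:**
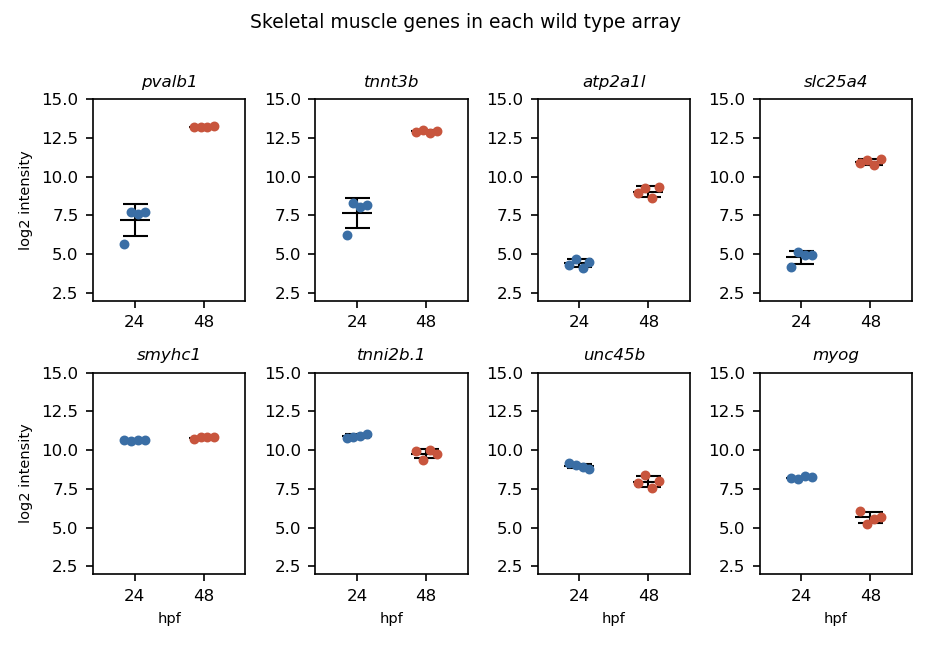
Log2 intensity of 8 skeletal muscle genes in each of the 4 wild type arrays at 24 hpf (blue) and at 48 hpf (red), with the mean and the SD in black. Values of pvalb1, tnnt3b, atp2a1l and slc25a4 at 48 hpf lie above all of those at 24 hpf, those of smyhc1 differ little, and tnni2b.1, unc45b and myog lie lower at 48 hpf.

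Many genes of energy metabolism rose alongside. In the glycolysis and citric acid cycle list, 34 of 56 genes (60.7%) rose and 2 (3.57%) fell, against 13.8% and 20.2% of all genes. The median change was 0.47. The number that fell was 1 without 24 hpf replicate 2, 3 or 4 or 48 hpf replicate 1, 2 or 3. The mitochondrial carrier slc25a4, which exchanges ADP for ATP, read 4.16, 5.17, 4.94 and 4.93 at 24 hpf and 10.87, 11.08, 10.73 and 11.17 at 48 hpf. This rise of 71.7-fold, 6.16 ± 0.20, adjusted p = 7.86e-09, started near background in all 4 arrays at 24 hpf. The largest rise of the glycolytic list was that of the muscle isoform pgam2, a phosphoglycerate mutase, at 2.78 ± 0.12, and the muscle isoforms of phosphofructokinase and enolase, pfkma and eno3, rose by 2.65 ± 0.13 and 2.49 ± 0.13. Glucose phosphate isomerase gpib, at 2.55 ± 0.16, and lactate dehydrogenase ldha, at 2.5 ± 0.16, rose to a like extent. Phosphoglycerate kinase pgk1 rose by 2.08 ± 0.13 on its brighter probe set, and its other probe set, near background, was not called at 0.15. Changes in the citric acid cycle were smaller, as for malate dehydrogenase mdh2 at 0.91 ± 0.09 and the succinate dehydrogenase subunit sdha at 0.64 ± 0.10. Of 83 respiratory chain genes, 19 (22.9%) rose, against 13.8% of all genes, and 2 fell. The number that rose was 32 without 24 hpf replicate 1. It was 13 without 24 hpf replicate 3 or 4 or 48 hpf replicate 4. The number that fell was 1 without 24 hpf replicate 4 or 48 hpf replicate 1, 2 or 3. The list includes the carrier slc25a4, whose rise was its largest. The next rises were those of a cytochrome c oxidase subunit 4 gene, cox4i1l, which changed from 5.37 ± 0.21 at 24 hpf to 8.80 ± 0.29 at 48 hpf (SD, n = 4; 3.43 ± 0.15, adjusted p = 1e-07), cox6b1 at 1.96 ± 0.50 (1.31 without 24 hpf replicate 1) and ndufa4b at 1.77 ± 0.19.

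Many matrix genes of the fin folds and the dermis rose. Actinodins form the actinotrichia, the rods that stiffen the fish fin fold. The actinodin gene and2 read 4.78, 4.91, 4.44 and 4.401 at 24 hpf and 9.999, 10.22, 9.52 and 10.44 at 48 hpf, and and1 read 5.16, 6.60, 6.51 and 6.46 at 24 hpf and 11.62, 11.54, 11.15 and 11.28 at 48 hpf. In both genes the groups were far apart, and the 24 hpf values of and2 were near background. Changes were 5.41 ± 0.19, adjusted p = 1.53e-08 for and2, 5.21 ± 0.28, adjusted p = 3.97e-07 for and1 and 4.67 ± 0.13, adjusted p = 2.33e-09 for and3. Of 32 fin fold and dermal matrix genes, 15 (46.9%) rose and 3 (9.38%) fell, against 13.8% and 20.2% of all genes. The median of the list was 0.37. The genes that rose included the matrix proteoglycan decorin, dcn, at 1.18 ± 0.13, periostin, postnb, at 1.18 ± 0.10 and the metalloprotease inhibitor timp2a at 1.498 ± 0.17. The collagen col14a1a fell by 0.71. Among 21 collagen genes 9 (42.9%) rose and 2 (9.52%) fell, against 13.8% and 20.2% of all genes. The number that fell was 1 without 24 hpf replicate 2 or 3 or 48 hpf replicate 1 or 4. The type I collagen genes col1a1a and col1a2, the main fibres of dermis and bone, changed by 1.80 ± 0.23 and 1.69 ± 0.23.

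In the cartilage and bone list 18 of 42 genes (42.9%) rose and 2 (4.76%) fell, against 13.8% and 20.2% of all genes. The count that fell was 1 without 24 hpf replicate 2, 3 or 4 or 48 hpf replicate 2. The bone and cartilage regulator runx2a read 5.66, 6.19, 5.90 and 5.78 at 24 hpf and 7.78, 7.997, 7.66 and 7.999 at 48 hpf. The times did not overlap, and the change was 1.98 ± 0.13, adjusted p = 1.9e-06, while its other probe set was not called (0.15). Matrilin, matn4, rose by 1.69 ± 0.15, the hypertrophic cartilage collagen col10a1a by 1.21 ± 0.25, the matrix protein gene sparc by 0.84 ± 0.10 and the jaw joint gene nkx3-2 by 1.05 ± 0.14. The type II collagen col2a1a, the main collagen of cartilage and notochord sheath, was not called (0.76 ± 0.50, adjusted p = 0.309), and its change was 0.13 without 24 hpf replicate 1. The dlx and msx genes of the branchial arches and fins were mixed, with msx1a at -0.61 ± 0.13 among those that fell and dlx4a at 1.08 ± 0.11 among those that rose.

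Keratins, the filament proteins of the skin, changed in both directions. Of 16 measured genes whose symbol starts with krt, 6 rose, 4 fell and 6 were not called, with changes from -2.44 to 4.00. The uncalled ones include a keratinocyte-associated protein gene that shares the prefix but is not a keratin. The type I keratin krt17 read 12.59, 12.01, 11.82 and 11.95 at 24 hpf and 10.03, 10.12, 9.86 and 10.32 at 48 hpf, and krt91 read 8.81, 8.25, 8.17 and 8.11 at 24 hpf and 12.08, 12.06, 11.87 and 12.34 at 48 hpf. The first was lower and the second higher in every 48 hpf array, with changes of -2.01 ± 0.17, adjusted p = 9.31e-06 and 3.75 ± 0.16, adjusted p = 7.1e-08. The steepest other rise was that of krt1-19e at 4.00 ± 0.13, followed by krt18b at 2.07 ± 0.13 and krt15 at 2.01 ± 0.17. The other falls were krt99 at -2.44 ± 0.27, krt1-19d at -1.78 ± 0.21 and krt5 at -0.77 ± 0.10. The abundant skin keratins krt4 and krt8 were not called, at -0.03 and -0.26. Keratin sequences are alike, and some of these probe sets, such as that of krt91, are of a type that the manufacturer marks as open to cross-hybridisation. In the whole epidermis list of 55 genes, 17 (30.9%) rose and 15 (27.3%) fell, against 13.8% and 20.2% of all genes. The calcium-binding skin gene icn2 rose by 0.93 ± 0.11 and the annexin ligand s100a10b by 1.09 ± 0.11, while the cornified envelope gene evplb fell by 0.85 and the annexin anxa1b by 1.25.

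Ionocytes are the salt-transporting cells of the larval skin. Of 22 genes on their list 7 (31.8%) rose and 3 (13.6%) fell, against 13.8% and 20.2% of all genes. The listed gene foxi1 fell by 0.90 (adjusted p = 0.000208). The carbonic anhydrase ca2 rose by 1.01 ± 0.12 and the sodium pump subunits atp1a1a.2 and atp1b1b by 1.18 ± 0.15 and 0.80 ± 0.17. The mucin muc5.1, of mucus cells, rose by 1.24 ± 0.11.

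Lens genes held 3 of the 20 largest rises in a ranking of called genes that left out provisional and some other symbols, by a rule given below. Crystallins are the transparent proteins that fill lens fibres. The beta crystallin crybb1 read 5.57, 7.27, 7.09 and 6.98 at 24 hpf and 11.87, 11.999, 11.65 and 11.59 at 48 hpf, and the gamma-type crystallin crygmxl2 read 4.61, 4.73, 4.72 and 4.53 at 24 hpf and 9.59, 9.65, 9.69 and 9.60 at 48 hpf. Both moved by about 5 log2 units with no overlap, 5.05 ± 0.31, adjusted p = 1.09e-06 and 4.99 ± 0.09, adjusted p = 7.77e-11, and cryba4 changed by 5.08 ± 0.14. In all, 7 of 14 lens genes (50%) rose, against 13.8% of all genes, and limma called 0 lower (0 at an unadjusted p under 0.05). The lens filament gene bfsp2 rose by 1.75 ± 0.18 and the alpha crystallin cryaa by 0.85 ± 0.14. Other crystallins, such as cryaba at 0.38, were not called, and both means of cryaba lay below the foreign-sequence median.

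In the retina a minority of the listed genes were called, and those called were higher at 48 hpf. Of 50 photoreceptor and retina genes, 24 had means below the foreign-sequence median at both times. In the whole list 12 (24%) rose, against 13.8% of all genes, and limma called 0 lower (2 at an unadjusted p under 0.05). The latter count was 2 without 24 hpf replicate 1 or without 48 hpf replicate 3. The proneural gene atoh7, which starts ganglion cell formation, read 3.39, 3.59, 3.31 and 3.25 at 24 hpf and 4.87, 4.90, 4.91 and 3.93 at 48 hpf. Its 48 hpf values were all above those at 24 hpf, with replicate 4 lower than the rest, and the change was 1.26 ± 0.20, adjusted p = 0.00101. Its means at 24 and 48 hpf, 3.39 and 4.65, both lay below the foreign-sequence median. The bipolar cell factor vsx1 rose by 0.71 ± 0.13, the visual cycle genes rpe65a and rlbp1a by 0.60 ± 0.12 and 0.61 ± 0.12, and the transducin subunit gngt1 by 1.096 ± 0.16. The exo-rhodopsin exorh, the opsin of the pineal organ, rose by 0.95 ± 0.12. The ultraviolet opsin opn1sw1 was not called (0.17 ± 0.17, adjusted p = 0.522), with values of 4.73, 5.13, 5.09 and 4.82 at 24 hpf and 4.91, 5.01, 5.64 and 4.89 at 48 hpf. These values overlapped. The photoreceptor regulator nr2e3 was near background throughout at 3.58 ± 0.15 at 24 hpf and 3.74 ± 0.08 at 48 hpf (SD, n = 4). In the ear list 2 of 11 genes (18.2%) rose and 3 (27.3%) fell, against 13.8% and 20.2% of all genes. Otoconin oc90, of the early otolith, fell by 1.61 (adjusted p = 2.78e-06), while the otolith matrix gene otomp rose by 0.55 ± 0.12 and the hair cell factor atoh1a by 0.58 ± 0.12.

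Many genes of differentiated neurons rose. Of 77 neuron and synapse genes 42 (54.5%) rose and 1 (1.3%) fell, against 13.8% and 20.2% of all genes. The median of the list was 0.54. The synaptic vesicle fusion gene snap25b read 4.36, 4.93, 4.72 and 4.80 at 24 hpf and 6.999, 7.02, 6.87 and 6.67 at 48 hpf, and the neuronal RNA binding gene elavl4 read 5.27, 6.43, 6.40 and 6.48 at 24 hpf and 7.73, 7.79, 7.79 and 7.11 at 48 hpf. The groups did not overlap in either gene, and in elavl4 replicate 1 at 24 hpf and replicate 4 at 48 hpf were below their groups. Their changes were 2.19 ± 0.13, adjusted p = 1.15e-06 and 1.46 ± 0.26, adjusted p = 0.00192. Other synaptic genes rose too, among them the calcium sensor syt1a at 1.503 ± 0.19 and snap25a, a close relative of snap25b, at 1.65 ± 0.13. A glycine receptor subunit, glra4a, rose by 2.41 ± 0.14, and the calretinin gene calb2b by 1.52 ± 0.10. The axonal microtubule regulators stmn1b and stmn2a rose by 1.45 ± 0.12 and 1.66 ± 0.13. The G protein subunit gng3 rose by 1.87 ± 0.11 on its brighter probe set and was not called on the other (0.24).

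Some genes of the glia and myelin list rose as well. Of its 16 measured genes 6 (37.5%) rose, against 13.8% of all genes, and limma called 0 lower (2 at an unadjusted p under 0.05). The latter count was 1 without 24 hpf replicate 1 or without 48 hpf replicate 4. The glutamate transporter slc1a2b of astroglia read 5.42, 6.90, 6.76 and 6.94 at 24 hpf and 9.49, 9.18, 9.18 and 8.80 at 48 hpf. Its lowest value was that of 24 hpf replicate 1, the times were apart, and the change was 2.66 ± 0.30, adjusted p = 0.000104. The neural membrane glycoprotein genes gpm6aa and gpm6ab rose by 1.91 ± 0.18 and 1.89 ± 0.14. The myelin basic protein genes mbpa and mbpb changed by -0.00 (not called) and 0.52 ± 0.12 (called). Both means of mbpa lay below the foreign-sequence median.

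Genes of neural progenitors went both ways, with 12 of 58 (20.7%) higher and 14 (24.1%) lower, against 13.8% and 20.2% of all genes. The radial glia lipid binding gene fabp7a rose from 8.21 ± 0.19 at 24 hpf to 10.04 ± 0.23 at 48 hpf (SD, n = 4), a change of 1.83 ± 0.14, adjusted p = 4.32e-06. Members that rose included the proneural gene ascl1b at 0.98 ± 0.12, the zinc finger gene insm1b at 1.23 ± 0.19 and the Notch ligand dlb at 0.71 ± 0.13, whose other probe set was not called (0.11). The genes that fell included regional regulators. The hindbrain segment gene egr2b read 5.05, 5.88, 6.06 and 6.13 at 24 hpf and 3.78, 4.03, 4.00 and 3.91 at 48 hpf, lower in every 48 hpf array (-1.85 ± 0.21, adjusted p = 9.36e-05). The neural progenitor genes sox19a and sox21a fell by 0.85 and 1.54, the repressor her9 by 1.12 and the midbrain gene en2b by 0.75. The progenitor factor sox2 was not called at -0.38 on its brightest probe set, and a probe set near background was not called at 0.23.

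Pigment cell genes went both ways. Of 19 genes 6 (31.6%) rose and 4 (21.1%) fell, against 13.8% and 20.2% of all genes. The melanin enzyme dct read 6.13, 7.26, 7.16 and 7.13 at 24 hpf and 9.74, 9.78, 9.35 and 9.97 at 48 hpf, with all 48 hpf arrays higher and 24 hpf replicate 1 lowest, and changed by 2.79 ± 0.23, adjusted p = 1.05e-05. The melanosome gene pmelb rose by 1.17 ± 0.17, the yellow pigment enzyme gch2 by 1.6 ± 0.16 and the sugar transporter family gene slc2a15b by 0.89 ± 0.15. The neural crest genes crestin and foxd3 fell by 1.06 and 0.64. Tyrosinase, tyr, and the melanocyte regulator mitfa were not called, at 0.10 and 0.31. At both times the mean of tyr lay below the foreign-sequence median.

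Many red blood cell genes rose. Of 32 genes 15 (46.9%) rose and 6 (18.8%) fell, against 13.8% and 20.2% of all genes. The median was 0.37, and all 5 measured globin genes rose. The smallest globin rises, 0.41 (adjusted p = 0.0487) and 0.47 (adjusted p = 0.037), started from means below the foreign-sequence median at 24 hpf. The anion exchanger slc4a1a, which carries bicarbonate across the red cell membrane, read 5.09, 7.06, 6.36 and 6.63 at 24 hpf and 9.61, 9.33, 9.10 and 9.97 at 48 hpf. All 48 hpf values were higher, and the change was 3.22 ± 0.35, adjusted p = 8.38e-05. The embryonic globins hbbe2 and hbae3 rose by 3.26 ± 0.11 and 1.59 ± 0.18, and alas2, which starts haem synthesis in red cells, by 2.15 ± 0.20. Members that fell included the early lineage genes klf17 at -0.91 ± 0.12 and lmo2 at -0.49 ± 0.11. Both means of lmo2 lay below the foreign-sequence median. The haem synthesis genes urod and cpox fell too, at -0.88 ± 0.10 and -0.99 ± 0.14.

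Of 36 myeloid and immune genes 10 (27.8%) rose and 3 (8.33%) fell, against 13.8% and 20.2% of all genes. Lysozyme, lyz, an antibacterial enzyme of myeloid cells, read 4.89, 6.04, 6.19 and 6.03 at 24 hpf and 10.08, 9.86, 10.06 and 10.32 at 48 hpf, a 19.6-fold rise (4.29 ± 0.25, adjusted p = 7.05e-07) with 24 hpf replicate 1 below the other 24 hpf arrays. The granule proteoglycan srgn rose by 1.74 ± 0.13. Neutrophil peroxidase mpx rose by 1.34 ± 0.17 on its brightest probe set, and 2 dimmer probe sets were not called (0.13 and 0.05). The early myeloid regulator spi1b was not called at 0.19 on its brighter probe set or at -0.13 on the other, which lay below the foreign-sequence median. Cathepsin C, ctsc, a lysosomal protease, fell by 3.05 (adjusted p = 1.59e-07), from 8.99 ± 0.25 at 24 hpf to 5.94 ± 0.21 at 48 hpf (SD, n = 4). In the innate immune and interferon list 3 of 27 genes (11.1%) rose, against 13.8% of all genes. The guanylate binding gene gbp1 was the 1 gene that fell, by 1.03.

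Vessel genes went both ways. Of 31 genes 7 (22.6%) rose and 5 (16.1%) fell, against 13.8% and 20.2% of all genes. The count that fell was 3 without 24 hpf replicate 4 or without 48 hpf replicate 3. The diaphragm protein plvapb of fenestrated endothelium rose by 2.00 ± 0.18, the VEGF receptor kdrl by 0.79 ± 0.18 and the sphingolipid receptor s1pr1 by 0.78 ± 0.16. The LIM domain gene crip2 fell from 9.83 ± 0.08 at 24 hpf to 7.77 ± 0.10 at 48 hpf (SD, n = 4; -2.06 ± 0.09, adjusted p = 1e-07). The lymphatic and venous receptor flt4 and the vascular receptor tie1 were not called, at 0.12 and -0.18. In the heart list 4 of 26 genes (15.4%) rose and 2 (7.69%) fell, against 13.8% and 20.2% of all genes. The flow-responsive factor klf2a rose by 1.01 ± 0.14, the cardiac myosin light chain myl7 by 0.52 ± 0.12, and the early cardiac factor nkx2.7 fell by 0.98. Of 12 smooth muscle genes 4 (33.3%) rose and 1 (8.33%) fell, against 13.8% and 20.2% of all genes. Among those that rose were acta2, smooth muscle actin, at 1.204 ± 0.14 and tagln at 1.04 ± 0.11. The count that fell was 0 without 24 hpf replicate 3 or 4 or 48 hpf replicate 2.

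Plasma protein genes, made by the liver and the yolk syncytial layer of the fish embryo, held many rises. Of 61 genes 26 (42.6%) rose and 4 (6.56%) fell, against 13.8% and 20.2% of all genes. The number that fell was 2 without 24 hpf replicate 4 or 48 hpf replicate 1, 2 or 3. The apolipoprotein apoea read 8.65, 7.74, 8.08 and 7.94 at 24 hpf and 11.46, 11.50, 11.69 and 11.92 at 48 hpf, with the groups apart and a change of 3.54 ± 0.18, adjusted p = 3.14e-07. The copper carrier ceruloplasmin, cp, rose by 2.66 ± 0.20 and vitronectin, vtnb, by 2.02 ± 0.15. Of 35 coagulation and complement genes 20 (57.1%) rose and 1 (2.86%) fell, with 2 lower without 24 hpf replicate 1. The fibrinogen chains fgb and fgg rose by 1.25 ± 0.15 and 1.44 ± 0.14, coagulation factor V, f5, by 2.21 ± 0.15 and the membrane attack component c9 by 1.38 ± 0.16, while complement factor D, cfd, fell by 1.74. Urate oxidase, uox, ran the other way at 8.62, 7.40, 8.01 and 7.85 at 24 hpf and 4.12, 3.90, 4.39 and 3.87 at 48 hpf, a 14.9-fold fall (-3.90 ± 0.22, adjusted p = 6.44e-07) that brought it below the foreign-sequence median in all 4 arrays. The hepatocyte fatty acid carrier fabp10a lay below that median at both times, at 3.82 ± 0.12 at 24 hpf and 3.99 ± 0.23 at 48 hpf (SD, n = 4), and was not called.

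Pancreatic hormone genes were among those that rose, while the trypsin gene prss1 and the chymotrypsin gene ctrb.1 were not called. Of 30 pancreas genes 9 (30%) rose, against 13.8% of all genes, and limma called 0 lower (0 at an unadjusted p under 0.05). Insulin, ins, read 6.09, 6.44, 6.27 and 6.02 at 24 hpf and 7.65, 7.46, 7.52 and 7.79 at 48 hpf, higher in every 48 hpf array (1.402 ± 0.12, adjusted p = 1.16e-05). Somatostatin sst2 rose by 1.23 ± 0.18, glucagon gcga by 0.81 ± 0.13 and the exocrine regulator ptf1a by 0.75 ± 0.12. Trypsin, prss1, and chymotrypsin, ctrb.1, read changes of -0.03 and 0.08. At both times the mean of ctrb.1 lay below the foreign-sequence median and that of prss1 just above it. The carboxypeptidase cpa5 rose by 1.88 ± 0.13. In the gut list 7 of 35 genes (20%) rose and 2 (5.71%) fell, against 13.8% and 20.2% of all genes. The count that fell was 1 without 24 hpf replicate 2, 3 or 4 or 48 hpf replicate 3 or 4. The intestinal fatty acid carrier fabp2 fell by 1.65 (adjusted p = 2.92e-06), and the citrate transporter slc13a2 rose by 2.01 ± 0.23. Of 29 genes on the list of the pronephros, the embryonic kidney, 3 rose and 9 fell. The first share was below the 13.8% of all genes and the second above the 20.2%. Among those that rose was lhx1a at 1.44 ± 0.23, though whole-embryo RNA does not show in which tissue. The count of 9 was 4 without 24 hpf replicate 2, 3 or 4 and 5 without 48 hpf replicate 4. The larger share that fell thus depended on single arrays. The anion transporter gene slc26a1 and the scaffold protein gene nherf1a, at -0.67 ± 0.17 and -0.61 ± 0.13, were among those that fell. Of these, slc26a1 was among the 10 of 29 listed genes whose means lay below the foreign-sequence median at both times.

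**Figure D4:**
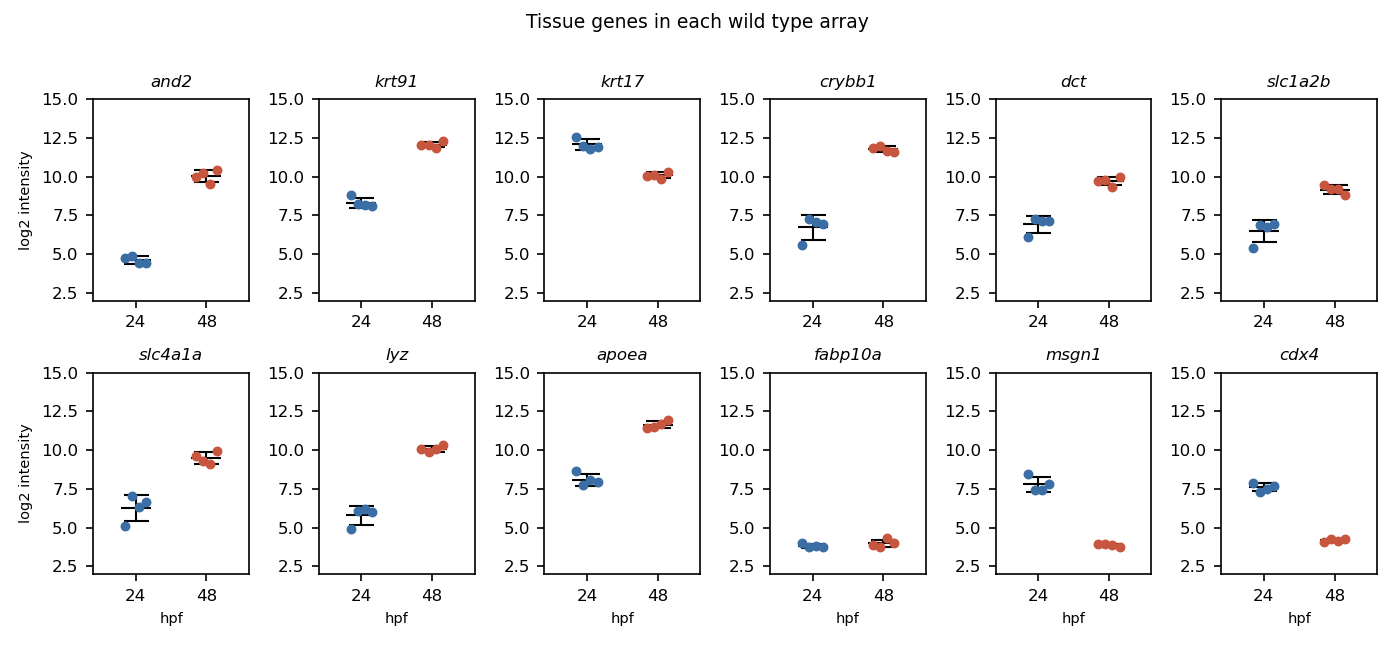
Log2 intensity of 12 tissue genes in each of the 4 wild type arrays at 24 hpf (blue) and at 48 hpf (red), with the mean and the SD in black. Fin fold (and2), skin (krt91), lens (crybb1), pigment (dct), glial (slc1a2b), blood (slc4a1a, lyz) and plasma protein (apoea) genes are higher at 48 hpf, krt17 and the tailbud genes msgn1 and cdx4 are lower, and fabp10a stays near background.

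Genes of cell division and of protein and RNA production fell in large numbers, to be read against the 20.2% of all genes that fell. Of 57 DNA replication genes 51 fell and limma called 0 higher (0 at an unadjusted p under 0.05), with a median of -0.70. The replicative helicase subunit mcm2 read 10.63, 11.07, 11.01 and 10.81 at 24 hpf and 9.76, 10.299, 9.30 and 9.93 at 48 hpf. Every 48 hpf array was below every 24 hpf array, with a change of -1.06 ± 0.19, adjusted p = 0.00187. The loading factors cdc6 and cdt1, which set the helicase on origins, changed by -1.06 ± 0.10 and -1.04 ± 0.10, and the nucleotide reductase rrm1 by -0.89 ± 0.10. Of 65 mitosis genes 42 fell and limma called 0 higher (0 at an unadjusted p under 0.05), with a median of -0.48. After cyclic loess 27 fell and 1 rose. Cyclin ccnb1, which drives entry into mitosis, fell by 0.80, the kinase plk1 by 0.66 and the spindle midzone gene prc1a by 1.01. The mitotic kinase gene cdk1 was not called at -0.33 ± 0.14, adjusted p = 0.108.

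Genes of ribosome biogenesis were lower in most cases. Of 99 genes 91 (91.9%) fell, against 20.2% of all genes, with a median of -0.88. Fibrillarin, fbl, which methylates ribosomal RNA, read 10.85, 10.57, 10.71 and 10.71 at 24 hpf and 9.34, 9.55, 9.40 and 9.40 at 48 hpf, with no overlap and a change of -1.29 ± 0.10, adjusted p = 4.66e-06. The processome genes pwp2h and imp3 changed by -1.77 ± 0.23 and -1.37 ± 0.16, and the pseudouridine synthase dkc1 by -1.27 ± 0.13. The RNA polymerase I subunit polr1b fell by 1.32 on its brighter probe set, the other being uncalled at -0.05. A single member, nsa2, was called higher at 0.33 ± 0.11, and it was uncalled without 24 hpf replicate 1 or 2 or without any of the 48 hpf replicates. By contrast, 5 of 74 genes on the list of ribosomal proteins (6.76%) fell, against 20.2% of all genes, and the median of the list was -0.16. The number called lower was 1 or 2 when any array but 48 hpf replicate 3 was left out, and 1 to 31 under other settings. Small shifts were common, as in 43 of the 74 genes the groups did not overlap, against 30.6% of all probe sets. The mean of the list was 13.26 to 13.35 in the 24 hpf arrays and 13.10 to 13.15 in the 48 hpf arrays. No other list was as bright in any array, and whether changes at such levels are compressed was not tested. The largest fall of the ribosomal protein list was that of rpl7l1, an assembly factor that resembles a ribosomal protein, at -0.96 ± 0.12. The proteins rpl3 and rpl4 were uncalled at -0.15 and -0.23.

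Genes of RNA processing and of protein turnover fell in number too. Of 93 spliceosome and hnRNP genes 54 (58.1%) fell, against 20.2% of all genes, with a median of -0.44. In that list limma called 0 higher (0 at an unadjusted p under 0.05). The core splicing factor prpf8 changed by -0.76 ± 0.11 and the snRNP protein gene snrpg by -0.85 ± 0.12. In the chromatin list 25 of 62 genes (40.3%) fell and 4 (6.45%) rose, against 20.2% and 13.8% of all genes. The FACT subunit ssrp1a changed by -1.06 ± 0.16 and the DNA methyltransferase dnmt3bb.2 by -1.01 ± 0.13, and the chromatin protein genes hmgb1a and cbx1b were higher at 0.54 ± 0.10 and 0.63 ± 0.11. Of 46 proteasome genes 23 (50%) fell, against 20.2% of all genes. The number that fell was 14 without 48 hpf replicate 1, 15 without 48 hpf replicate 4 and 7 after cyclic loess. The activator psme3 fell by 0.86 and the core subunit psma5 by 0.72. The mean of the proteasome list was 8.76 in 24 hpf replicate 1 and 8.36 to 8.39 in the other 24 hpf arrays. Of 64 translation factor and tRNA synthetase genes 27 (42.2%) fell and 7 (10.9%) rose, against 20.2% and 13.8% of all genes. After cyclic loess 17 of them fell. The arginyl-tRNA synthetase rars1 fell by 1.34 and the initiation factor eif2s2 by 0.75, while the poly(A) binding gene pabpc4 and the elongation brake eef2k, which phosphorylates elongation factor 2, rose by 1.16 ± 0.16 and 1.15 ± 0.15.

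**Figure D5:**
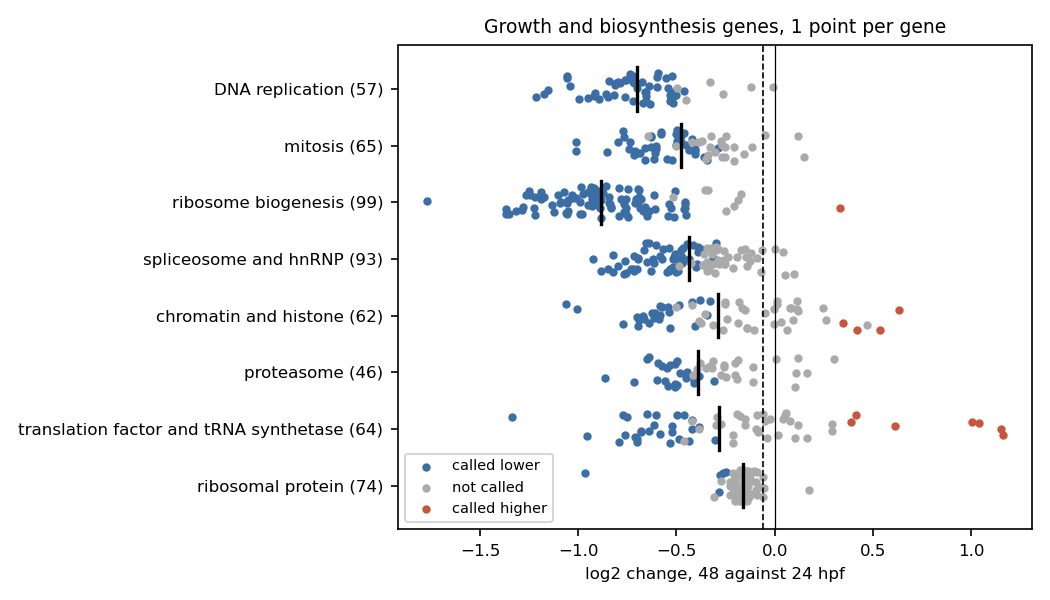
Log2 change from 24 to 48 hpf of each gene in 8 lists of growth and biosynthesis, with 1 point per gene coloured by its call, a black bar at the median of the list and a dashed line at the median of all genes. Nearly all replication and ribosome biogenesis genes lie to the left of 0, and ribosomal protein genes cluster just left of it.

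Many genes of the tailbud, the growth zone that supplies new somites, fell, some to background. Of 42 tailbud and presomitic mesoderm genes 17 (40.5%) fell and 5 (11.9%) rose, against 20.2% and 13.8% of all genes. The count that rose was 3 without 24 hpf replicate 4 or 48 hpf replicate 1 or 2. The presomitic regulator msgn1 read 8.47, 7.43, 7.46 and 7.84 at 24 hpf and 3.97, 3.92, 3.87 and 3.74 at 48 hpf, and the posterior identity gene cdx4 read 7.91, 7.30, 7.52 and 7.66 at 24 hpf and 4.07, 4.25, 4.12 and 4.25 at 48 hpf. In both, all 48 hpf values lay below the foreign-sequence median and far below the 24 hpf values, with changes of -3.93 ± 0.20, adjusted p = 2.82e-07 and -3.43 ± 0.13, adjusted p = 2.45e-08. A second msgn1 probe set, near background at both times, was not called (-0.27). The T-box genes tbx16 and tbx6 fell by 1.15 and 0.90, the Wnt target sp5l by 1.28 and the growth factor fgf8a by 0.80. The retinoic acid degrading enzyme cyp26a1 rose instead, by 1.58 ± 0.12.

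Of 23 notochord genes 5 (21.7%) rose and 6 (26.1%) fell, against 13.8% and 20.2% of all genes. The count that fell was 3 without 24 hpf replicate 2 or 3 or 48 hpf replicate 4. The early regulators noto and tbxta fell by 1.00 and 0.94, and the membrane gene pmp22b rose by 1.77 ± 0.14. The enzymes of the hatching gland digest the chorion. Of 5 measured genes on its list 1 (20%) rose and 1 (20%) fell, against 13.8% and 20.2% of all genes, and 3 were not called. The gene that fell, klf17, is also on the red blood cell list. The secretory gene agr2, which rose by 1.24 ± 0.13, is also on the ionocyte and gut lists. In the Hox clusters, which pattern the body axis, 5 of 42 genes (11.9%) fell and 4 (9.52%) rose, against 20.2% and 13.8% of all genes. The count that rose was 2 without 24 hpf replicate 4 or 48 hpf replicate 1, 2 or 3. The hindbrain gene hoxb1a and the posterior gene hoxd13a fell by 1.12 and 0.79. Of 40 feedback targets of the Hedgehog, Notch, Wnt, Fgf and Bmp pathways 6 (15%) rose and 7 (17.5%) fell. The shares among all genes were 13.8% and 20.2%. The count that fell was 4 without 24 hpf replicate 2 or 3 or 48 hpf replicate 2. The inhibitor of helix-loop-helix factors id4 rose by 1.53 ± 0.10 and the Bmp and Tgf-beta inhibitor smad7 by 0.83 ± 0.15. The Hedgehog target gli1, with both means below the foreign-sequence median, was not called at -0.10.

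The remaining lists held fewer or mixed calls. Of 52 stress, hypoxia and p53 genes 17 (32.7%) rose and 9 (17.3%) fell, against 13.8% and 20.2% of all genes. The heat shock gene hsp70.3 rose by 3.36 ± 0.31, the growth factor binding gene igfbp1a, which hypoxia induces, by 2.62 ± 0.15 and the oxygen sensor egln3 by 2.02 ± 0.30. The small heat shock gene hspb1 fell by 1.24 and the mitochondrial chaperone hspd1 by 0.84. Of 32 clock genes 4 (12.5%) rose, against 13.8% of all genes, with the transcription factor nfil3-5 at 1.34 ± 0.14. The photolyase relative cry-dash was the 1 gene that fell, by 0.69, with 2 lower without 48 hpf replicate 3. Of 40 cilium genes 9 (22.5%) fell, against 20.2% of all genes, and 1 rose. The count that fell was 5 without 24 hpf replicate 2 or 3 or 48 hpf replicate 1, 2 or 4. The intraflagellar transport gene ift57 was among those that fell, at -0.51 ± 0.12. Of 18 cholesterol and lipid synthesis genes 5 (27.8%) rose and 4 (22.2%) fell, against 13.8% and 20.2% of all genes. The first count was 3 without 24 hpf replicate 2 or 48 hpf replicate 4 and 2 without 24 hpf replicate 4, and the second was 2 without 24 hpf replicate 3 or 48 hpf replicate 2 or 3 and 1 without 48 hpf replicate 1. The elongase elovl5 fell by 0.69 and the malic enzyme me1 rose by 0.84 ± 0.15, with its other probe set uncalled (0.42).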

How the data were processed

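Whole-embryo RNA, extracted with a phenol-based reagent, was hybridised to 1-colour Affymetrix arrays. Per the labels and the submitters' processing notes, which name GCOS, RMA and the affy package, the authors deposited 1 normalised intensity per probe set. Their versions are not stated in the labels. The values were linear, so log2 was taken with no pseudocount. The array median intensity was 45.7 to 47.3, and the number of arrays limits the precision.

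Of 15617 probe sets 115 manufacturer controls were dropped, which left 15502. The 8 wild type arrays were fitted with limma 3.58.1 in R 4.3.3 (lmFit and eBayes, 6 residual and 4.839 prior degrees of freedom). Tests were two-sided, with Benjamini-Hochberg adjustment over all 15502 probe sets at 0.05. Pools are separate samples per the series description.

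Gene symbols came from the platform annotation: 10795 probe sets had 1 symbol, 135 several and 4572 none. Of the 10795 probe sets 10711 had a gene identifier that matched RefSeq, and 1 symbol was updated. Of the 8793 genes 1539 had more than 1 probe set, and the one of highest mean wild type signal stood for the gene.

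The members and the 45 gene lists were chosen with earlier results of these data known. Lists share some genes. Named genes are the 20 largest rises and 20 largest falls among called genes whose arrays do not overlap. That ranking left out probe sets without a single symbol. It also left out symbols with a colon or starting with LOC, zgc, si, im, wu, sb, zmp or cssl. Per list, named genes further include up to 8 members by smallest adjusted p in each direction and those among its first 6. Of 235 genes named, actc1b, ckma, cox6b1, mdh2, mybpc2b and pvalb2 fell outside that rule and were chosen after their values were seen. In simulated data (15502 probe sets), 97 of 100 changes of log2 1, 47 of 100 of log2 0.5 and 11 of 15302 unchanged probe sets were called. Far fewer probe sets were changed there than the 4408 called here, and the noise was independent with no array standing apart. These rates therefore do not carry over to the real arrays. Alternatives were the mutants in the fit, a replicate block, a filter on dim probe sets, a pseudocount of 16, quantile normalization, median centring, cyclic loess, an intensity trend, array weights, the mean of a gene's probe sets and each array left out. A fit without both 24 hpf replicate 1 and 48 hpf replicate 3, the arrays that correlated least with their groups, was added after the data were seen.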

Additional observations from a re-analysis of the deposited data

Results flagged for a closer look

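In 45 of 560 sets of 4 arrays tested, a set being the 4 values of 1 gene or gene list at 1 time, the highest or lowest array lay so far from the others that its gap, as a share of the group's range, exceeded Dixon's critical value for 4 values. Chance alone marks about 1 in 20 such groups. In each comparison that follows, the first value is the log2 intensity of the array that stood apart, and the range is that of the other 3 arrays at the same time. The cause was not tested.

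The array that stood apart most often was 24 hpf replicate 1. Its mean over a gene list was low for fast skeletal muscle at 8.27 against 9.01 to 9.13 and for glia and myelin at 7.02 against 7.21 to 7.24. Its mean over the proteasome list was high, at 8.76 against 8.36 to 8.39. Muscle genes were low in this array, with pvalb1 at 5.64 against 7.60 to 7.75, pvalb2 at 8.91 against 10.56 to 10.76, tnnt3b at 6.23 against 8.02 to 8.28, ckma at 9.60 against 11.05 to 11.25 and myhz1.3 at 10.73 against 11.51 to 11.57. Low values of matrix genes were those of and1 at 5.16 against 6.46 to 6.60 and sparc at 10.55 against 10.69 to 10.71. Neural and neural crest derived genes that read low were elavl4 at 5.27 against 6.40 to 6.48, slc1a2b at 5.42 against 6.76 to 6.94, crestin at 8.36 against 9.36 to 9.42 and dct at 6.13 against 7.13 to 7.26. The mitochondrial genes cox6b1 at 6.16 against 8.61 to 9.05 and sdha at 8.44 against 8.67 to 8.71 and the myeloid gene lyz at 4.89 against 6.03 to 6.19 were low too. Genes of RNA and protein production or turnover and of chromatin read high, with imp3 at 9.29 against 8.56 to 8.66, snrpg at 9.54 against 9.11 to 9.16, rars1 at 9.04 against 8.43 to 8.48, psma5 at 10.54 against 9.99 to 10.07, hspd1 at 10.85 against 10.60 to 10.61 and dnmt3bb.2 at 6.41 against 5.82 to 5.90. The plasma protein genes c9 at 8.26 against 7.66 to 7.68 and fgg at 9.38 against 8.95 to 9.01 were also high.

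In 48 hpf replicate 3 the mean of the list was high for lens at 6.31 against 5.81 to 5.89 and exocrine and endocrine pancreas at 5.43 against 5.16 to 5.18. Genes with a high value in that array were opn1sw1 at 5.64 against 4.89 to 5.01 and tbx6 at 5.76 against 5.04 to 5.14. In 48 hpf replicate 3 the mean of the list was low for pronephros at 5.29 against 5.33 to 5.33. Genes with a low value in that array were ca2 at 9.05 against 9.40 to 9.44 and nfil3-5 at 8.31 against 8.76 to 8.84. In 48 hpf replicate 4 the mean of the list was high for heart at 6.18 against 6.08 to 6.09 and respiratory chain at 10.05 against 9.90 to 9.91. Genes with a high value in that array were cyp26a1 at 9.82 against 9.45 to 9.51, slc2a15b at 8.05 against 7.49 to 7.56, sp5l at 4.35 against 4.08 to 4.12 and tcnbb at 11.52 against 11.18 to 11.24. Genes with a low value in that array were atoh7 at 3.93 against 4.87 to 4.91, elavl4 at 7.11 against 7.73 to 7.79, s1pr1 at 8.35 against 8.77 to 8.85 and stmn2a at 7.96 against 8.39 to 8.41. In other arrays, gcga at 4.75 against 5.17 to 5.26 was low in 48 hpf replicate 2, plk1 at 9.88 against 9.92 to 9.93 was low in 24 hpf replicate 3 and smyhc1 at 10.69 against 10.83 to 10.84 was low in 48 hpf replicate 1.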

How the results depend on the processing

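The number of probe sets called was 4408 and ranged from 3931 to 5550 over 9 other settings, from 3573 to 4488 when 1 array was left out, and was 5064 without both arrays least like their groups. The deviations of same-numbered arrays from their group means correlated at -0.240, 0.052, 0.114 and -0.037. Those of differently numbered arrays correlated at -0.251 to 0.290. These values alone cannot tell whether same-numbered pools shared a source. The fit with the replicate number as a block called 3931 (1716 higher and 2215 lower), and the only call of a named gene it changed was nsa2. With a pseudocount of 16 the calls of at least 2-fold were 388 higher and 161 lower in place of 542 and 247, since that sum compresses changes of dim genes. Of the 90 list counts, between 2 (median centring) and 23 (cyclic loess) moved by more than 1.5 times under a setting, most of them counts of 5 or fewer. Larger ones were mitosis, proteasome and translation factor genes that fell (27, 7 and 17 after cyclic loess), pronephros, notochord and signalling feedback genes that fell (4, 3 and 4 after cyclic loess), signalling feedback genes that rose (10 with array weights and 10 without both arrays least like their groups) and respiratory chain genes that rose (36 after cyclic loess, 33 with array weights and 39 without both arrays least like their groups). Ribosomal protein genes that fell numbered 31 with a pseudocount of 16, 29 with an intensity trend, 14 after quantile normalization, 12 with array weights, 10 with the mutants in the fit, 3 without both arrays, 2 after median centring and 1 with a replicate block, after cyclic loess or without dim probe sets. The direction of called named genes did not change under any of these settings. The uncalled genes cdk1, krt8, mitfa, rpl4, smyhc1 and sox2 were called under at least 1 of them, in their given direction. Uncalled genes near 0 changed sign. The value of krt4 was 0.07 after cyclic loess, and opn1sw1 was -0.02 with array weights. Without both arrays ctrb.1 was -0.00, krt4 0.02, myod1 0.01, opn1sw1 -0.08 and prss1 0.02. With 1 array left out, gli1 ranged from -0.21 to 0.05, krt4 from -0.07 to 0.02, mbpa from -0.04 to 0.03, opn1sw1 from -0.01 to 0.24 and prss1 from -0.10 to 0.01. The causes were not tested. Signal over background limits genes near the foreign-sequence median, where fold changes are compressed.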

Other observations

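Several of the largest changes fell outside the lists described above. The largest rise in the ranking described above was that of tcnbb, of the transcobalamin family of vitamin B12 carriers. It read 4.59, 5.32, 4.95 and 4.94 at 24 hpf and 11.18, 11.19, 11.24 and 11.52 at 48 hpf. This was an 80.6-fold rise (6.33 ± 0.15, adjusted p = 7.48e-10). No 24 hpf value was above 5.32. A heat shock cognate gene, hsc70, rose from 3.69 ± 0.15 at 24 hpf to 7.39 ± 0.27 at 48 hpf (SD, n = 4), a change of 3.70 ± 0.14, adjusted p = 2.8e-08. Decreases included jam2a, an adhesion molecule needed for the fusion of fast muscle precursors in zebrafish, at -1.93 ± 0.13, adjusted p = 1.9e-06, the elastic fibre gene efemp2b at -2.82 ± 0.17, adjusted p = 8.67e-07 and the globin relative cygb1 at -1.87 ± 0.15, adjusted p = 7.77e-06. The remaining genes among the 20 largest changes in each direction were tgm1l4, a transglutaminase relative, at -1.996 ± 0.11, arl6ip5a at -2.40 ± 0.24 and the amino acid transporter family gene slc38a8b at -2.35 ± 0.16. The probe set assigned to wdr90 fell by 2.78. The probe sets of wdr90 and cygb1 are of a type open to cross-hybridisation.

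Gene families, grouped by symbol after their values were seen, differed in how evenly they moved. Of 13 cathepsin genes, which encode lysosomal proteases, 5 rose and 5 fell. The falls were steeper: ctsc, ctsll and ctss2.1 changed by -3.05, -2.69 and -2.58, and the largest rise of the family was 0.89. Of 24 claudin genes, which seal epithelia, 4 rose and 8 fell, and of 6 synaptotagmin genes 5 rose. Among all genes 13.8% rose and 20.2% fell.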
